A study of Mus musculus with 3 samples.

Results

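Transcripts of 34 genes for integrins, a selectin, their cell-surface ligands and the cytoplasmic adaptors that switch integrins on were followed in 3 leukocyte populations of the mouse intestinal epithelium. The genes were taken by symbol, and each matched 1 of the 37224 Ensembl gene IDs in the count files. They comprise 17 integrin α subunits, 7 β subunits, 4 ligands of the Icam and Vcam families, P-selectin with its ligand PSGL-1, and 4 talin and kindlin genes. Of the 34, 24 reached 5 CPM (counts scaled to a common library total) in at least 1 library and 30 reached 1 CPM.

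All animals were RAG-2 null, a genotype in which the antigen receptor genes of T and B cells cannot be assembled. Lymphocytes that need such receptors are thus missing from every population. Rag2 had 0 counts in each library, which was not taken as a check of the genotype. The iCD8a library came from cells sorted on CD45 and CD8alpha. The ILC1 library came from NKp46+NK1.1+ cells, described as group 1 ILC, and the CD11b+ library from CD45+ myeloid cells that lacked CD8alpha and carried CD11b. Each population had 1 library, so no difference has a replicate check, no test between populations was possible and no p-value was computed. Age and sex of the mice, and any pooling of animals, were not given in the sources used here.

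Gene counts numbered 21678113 in the iCD8a library, 22181660 in ILC1 and 30511296 in CD11b+. Levels are CPM scaled with TMM factors, which correct for a few abundant genes taking a large part of a library. A fold is the ratio of these levels, and the range given with it is an exact 95% interval for counting error, with nothing on the spread between animals. A gene is called apart between 2 libraries when the fold was at least 4, the bound of the interval nearest to 1 was at least 2 and the level was at least 5 CPM in the higher library. The labels were checked on defining markers. Ptprc, which encodes CD45, was abundant everywhere, at 2136, 2695 and 1795 CPM. Cd8a stood at 2636 CPM in the iCD8a library, 4.41 in ILC1 and 28.3 in CD11b+, Ncr1, which encodes NKp46, at 1.44, 396 and 2.23, and Klrb1c, which encodes NK1.1, at 207, 546 and 14.7. All 10 macrophage and monocyte markers were higher in CD11b+ than in either other library. In sorted bulk RNA, fewer cells of a type and less RNA per cell cannot be told apart.

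Integrins are heterodimers of an α and a β chain that bind other cells or the matrix. At rest they are bent and bind weakly, and talin and kindlin, which attach to the β chain inside the cell, extend them into the binding form. The β2 family is restricted to leukocytes and binds Icam proteins, most β1 integrins bind collagen, laminin or fibronectin, and selectins are lectins that catch sialylated and fucosylated glycans on carriers such as PSGL-1. In gut epithelium, the αE chain paired with β7 binds E-cadherin on enterocytes, and α4 paired with β7 binds the vascular addressin of the gut wall.

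**Figure D1:**
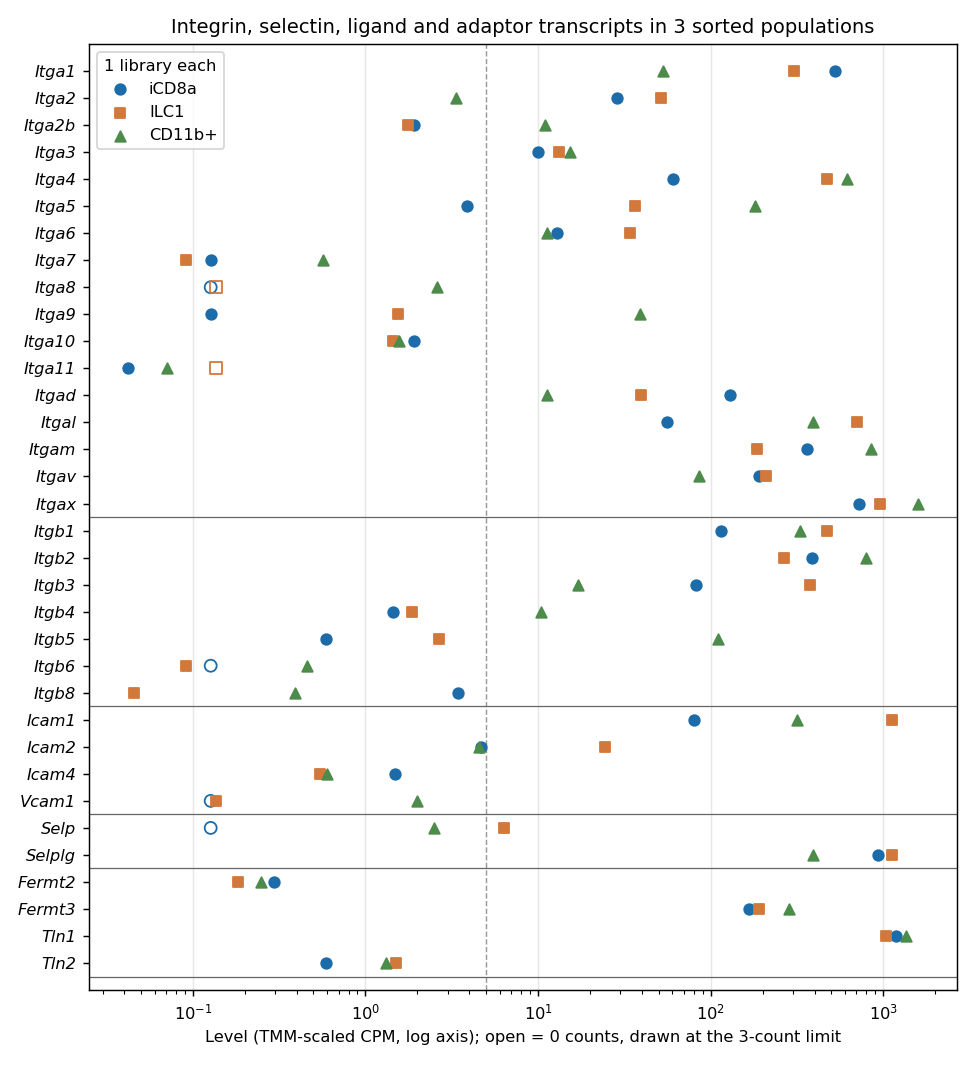
Level of each of the 34 genes in the iCD8a (circles), ILC1 (squares) and CD11b+ (triangles) libraries, as TMM-scaled CPM on a log axis, with lines between α subunits, β subunits, ligands, selectin genes and adaptors. Open symbols mark 0 counts and stand at the limit of 3 counts, and the dashed line marks 5 CPM. Itgal, Itga4, Itga5 and Icam1 lie far to the left in iCD8a, while Itgax, Itgam, Selplg, Fermt3 and Tln1 are abundant in every library.

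Those of the 34 genes that were apart between iCD8a and ILC1 were lower in iCD8a. Of the 34 genes, 8 were lower in iCD8a than in ILC1 (23.5%), against 4.89% of the 10110 genes with at least 5 CPM in either library, and 0 were higher, against 3.52%. The 8 were the α chains Itga4, Itga5 and Itgal, the β chains Itgb1 and Itgb3, the ligands Icam1 and Icam2, and Selp. Against CD11b+, 4 were higher in iCD8a (11.8%, against 6.13% of 10821 genes) and 7 were lower (20.6%, against 13.4%). Between ILC1 and CD11b+, 4 were higher in ILC1 (11.8%, against 6.01% of 10734 genes) and 6 were lower (17.6%, against 13%). The members' shares are over all 34, of which 20, 22 and 24 reached 5 CPM in the 3 comparisons, whereas the background shares are over genes at 5 CPM only, so the bases differ. Each library serves in 2 comparisons, so the counts are not independent.

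Over the 30 genes that reached 1 CPM, the log2 ratio had a median of −0.40 between iCD8a and ILC1 (iCD8a lower), −1.07 between iCD8a and CD11b+ (iCD8a lower) and −0.18 between ILC1 and CD11b+ (ILC1 lower). Over all 13649 genes with that level the medians were 0.04, 0.04 and 0.00. The last of the members' medians turned to 0.16 when only genes at 5 CPM or more in any library were kept, so it has no settled direction.

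**Figure D2:**
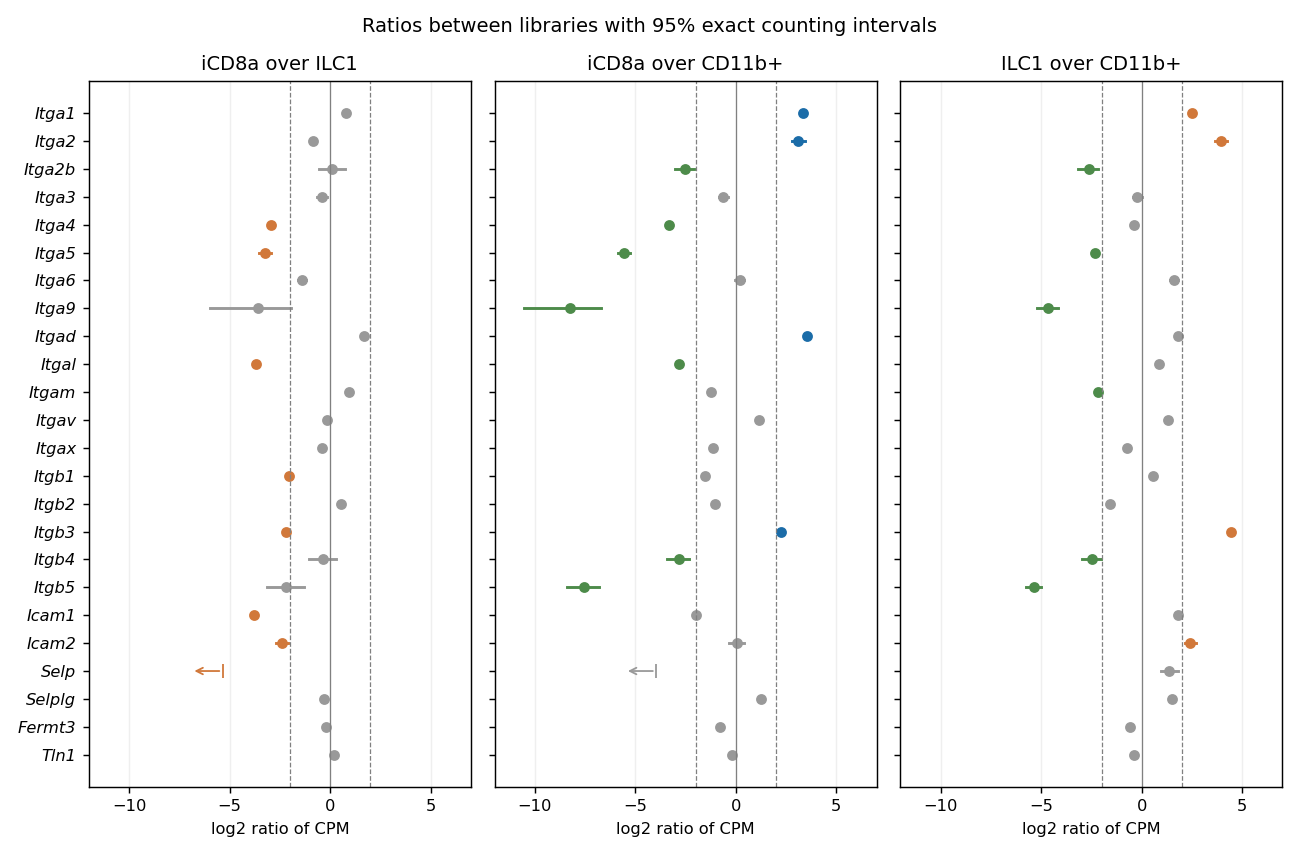
Log2 ratio of CPM between 2 libraries for the 24 genes that reached 5 CPM anywhere, with bars for the 95% exact counting interval. Coloured points were called apart and take the colour of the library with the higher level (blue iCD8a, orange ILC1, green CD11b+), grey points were not, and dashed lines mark a 4-fold ratio. Arrows start at the near bound of a gene with 0 counts in iCD8a. The left panel holds 8 orange genes and no blue one.

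Transcripts of the β2 chain and of its α partners were counted in every library. Among the α chains, Itgal, Itgad and Itgam were called apart in some comparison, and Itgax in none. Itgb2 (ENSMUSG00000000290), the β2 chain, stood at 389 CPM in the iCD8a library, 265 in ILC1 and 791 in CD11b+, and was not called apart in any comparison. It did differ below the fold minimum, with CD11b+ 2.98-fold above ILC1 (2.9 to 3.07) and 2.04-fold above iCD8a (1.99 to 2.09). Itgal (ENSMUSG00000030830), the α chain of LFA-1, which binds Icam1 and Icam2 and holds lymphocytes to other cells, stood at 55.6 CPM in the iCD8a library, 709.6 in ILC1 and 395 in CD11b+. The iCD8a library was the low one of the 3. Itgal was 12.8-fold lower there than in ILC1 (12.1 to 13.5) and 7.09-fold lower than in CD11b+ (6.7 to 7.51), while ILC1 and CD11b+ differed 1.8-fold (1.75 to 1.84).

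Itgad (ENSMUSG00000070369), the αD chain, known from subsets of tissue macrophages, had another order, with 130.2 CPM in the iCD8a library, 39.8 in ILC1 and 11.2 in CD11b+. It was highest in iCD8a, 11.6-fold above CD11b+ (10.3 to 13). Its 3.27-fold lead over ILC1 (3.04 to 3.53) lay below the fold minimum.

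Itgam (ENSMUSG00000030786) encodes CD11b, the αM chain of complement receptor 3, and its product was the gate for the CD11b+ sort, so a high level there was built into the design. It stood at 362 CPM in the iCD8a library, 187 in ILC1 and 845 in CD11b+. The transcript was thus counted in all 3 libraries, including the pair not sorted on it. Neutrophils also carry CD11b, and 3 of 10 of their markers were higher in CD11b+ than in either other library, with sums of 3.94, 9.54 and 242 CPM. Csf3r and Retnlg gave 130 and 92.9 CPM of the sum in CD11b+, where Ly6g and Elane had 0 counts and Mpo 1. The part of neutrophils in the Itgam result was not tested. For Itgam, CD11b+ exceeded ILC1 4.53-fold (4.38 to 4.68) and iCD8a 2.34-fold (2.28 to 2.4). Itgax, which encodes CD11c, the αX chain used as a dendritic cell marker, stood at 722 CPM in the iCD8a library, 957 in ILC1 and 1591 in CD11b+, and was not called apart in any comparison. Of 7 dendritic cell markers, 5 were higher in CD11b+ than in iCD8a and 4 than in ILC1, with sums of 81.1, 115 and 1036 CPM. Clec9a was higher in iCD8a than in CD11b+, and Flt3, Clec9a and Cd209a were higher in iCD8a than in ILC1. Zbtb46 went the other way and was lower in iCD8a than in ILC1, at 3.05 against 92.2 CPM.

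Levels of different genes were compared per kilobase of merged exons, within each library. Among the α chains that pair with β2, Itgax took the largest share everywhere, with 57.9% of their summed CPM per kilobase in iCD8a, 56.4% in ILC1 and 58.9% in CD11b+. Itgam followed in iCD8a (27.7%) and CD11b+ (29.9%) but not in ILC1 (10.5%), where Itgal came next with 30.6%. In iCD8a Itgal took 3.26% and Itgad 11.1%, and in CD11b+ they took 10.7% and 0.443%. Per length, the ratio of Itgal to Itgam was 0.118 in iCD8a (0.111 to 0.125), 2.91 in ILC1 (2.81 to 3.01) and 0.357 in CD11b+ (0.349 to 0.365).

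Promoter letters are shown for 5 of the members for which RefSeq gave a window. They are Itgam and Itgax as genes of the β2 family, and Itga4, Itga5 and Icam1 as genes lower in iCD8a than in ILC1. Itgb1 and Selp, also lower in iCD8a than in ILC1, have windows that are not shown. Each window holds the 250 bases before the RefSeq start in build GRCm38.p6, read 5′ to 3′ on the gene's strand. Itgam is at chr7:128062390-128062639 on the plus strand, Itgax at chr7:128129300-128129549 (plus), Itga4 at chr2:79255176-79255425 (plus), Itga5 at chr15:103366792-103367041 (minus) and Icam1 at chr9:21015690-21015939 (plus). Capitals mark matches on either strand to the PU.1 box GAGGAA, the RUNX core TGTGGT, the GC box GGGCGG, the AP-1 motif TGANTCA and the NF-kB motif GGAANNTCC.
Itgam: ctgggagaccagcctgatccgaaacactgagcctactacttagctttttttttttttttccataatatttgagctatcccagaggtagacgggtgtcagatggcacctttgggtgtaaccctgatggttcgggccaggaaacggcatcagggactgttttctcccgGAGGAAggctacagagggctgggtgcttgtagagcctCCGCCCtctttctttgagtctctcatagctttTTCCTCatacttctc
Itgax: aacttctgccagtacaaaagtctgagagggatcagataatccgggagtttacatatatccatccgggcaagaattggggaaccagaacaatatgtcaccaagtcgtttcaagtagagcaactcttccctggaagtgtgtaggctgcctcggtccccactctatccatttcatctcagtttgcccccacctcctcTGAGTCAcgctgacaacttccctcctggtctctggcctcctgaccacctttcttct
Itga4: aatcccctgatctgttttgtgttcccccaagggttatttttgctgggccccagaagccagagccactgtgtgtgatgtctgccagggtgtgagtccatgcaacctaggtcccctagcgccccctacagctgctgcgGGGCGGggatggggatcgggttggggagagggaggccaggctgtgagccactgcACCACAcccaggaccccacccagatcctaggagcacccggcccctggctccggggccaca
Itga5: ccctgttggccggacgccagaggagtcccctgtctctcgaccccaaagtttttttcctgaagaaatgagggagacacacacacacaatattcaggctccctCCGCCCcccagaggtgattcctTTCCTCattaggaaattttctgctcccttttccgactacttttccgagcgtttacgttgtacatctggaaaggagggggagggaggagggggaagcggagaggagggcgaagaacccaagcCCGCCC
Icam1: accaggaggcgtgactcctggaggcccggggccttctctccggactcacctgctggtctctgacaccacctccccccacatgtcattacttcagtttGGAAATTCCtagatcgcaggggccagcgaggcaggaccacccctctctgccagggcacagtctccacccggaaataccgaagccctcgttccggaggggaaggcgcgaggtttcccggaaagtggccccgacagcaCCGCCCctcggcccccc

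The Itgam window held 2 PU.1 boxes and 1 GC box, and the Itgax window 1 AP-1 match. The Itga4 window held 1 RUNX core and 1 GC box, the Itga5 window 1 PU.1 box and 2 GC boxes, and the Icam1 window 1 NF-kB match and 1 GC box. In these 5 windows no match overlapped another, and a sixth motif, the T-box site AGGTGT, had 0 matches. Of the windows not shown, that of Selp held 1 T-box site and 1 AP-1 match, which overlapped, and that of Itgb1 held 1 PU.1 box and 1 GC box. Among all 32851 promoter windows of this length, 23.3% held a PU.1 box, 14.0% a RUNX core, 32.7% a GC box, 6.75% an AP-1 match, 3.59% an NF-kB match and 11.8% a T-box site. The matches describe letters and do not show binding. A window was present for 23 of the 34 genes.

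The mix of α chains that can pair with β1 differed between the 3 libraries, though Itga4 led in both ILC1 and CD11b+. Itgb1 (ENSMUSG00000025809), the β1 chain, stood at 114 CPM in the iCD8a library, 475 in ILC1 and 328 in CD11b+. It was lowest in iCD8a, 4.16-fold under ILC1 (3.99 to 4.34), a call that was lost with levels scaled by total counts alone, and 2.87-fold under CD11b+ (2.75 to 3.0), which was not called.

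The fibronectin and Vcam1 receptor chains were low in iCD8a. Itga4 (ENSMUSG00000027009), the α4 chain of VLA-4 and, with β7, of the gut homing integrin, stood at 60.6 CPM in the iCD8a library, 473 in ILC1 and 615 in CD11b+. The iCD8a library was again the low one, 7.8-fold under ILC1 (7.38 to 8.25) and 10.1-fold under CD11b+ (9.61 to 10.7), while CD11b+ exceeded ILC1 1.3-fold (1.27 to 1.33), which was not called. Itga5 (ENSMUSG00000000555), the α chain of the classical fibronectin receptor, stood at 3.89 CPM in the iCD8a library, 36.6 in ILC1 and 182 in CD11b+. Its levels were spread out, with iCD8a 9.4-fold under ILC1 (7.57 to 11.8), iCD8a 46.7-fold under CD11b+ (38.0 to 58.1) and ILC1 4.97-fold under CD11b+ (4.62 to 5.36). Itga9, whose product binds tenascin and osteopontin, stood at 0.127, 1.54 and 39.1 CPM in the same order. It was mainly a CD11b+ transcript, 308-fold above iCD8a (105 to 1494), with 3 counts in iCD8a, and 25.3-fold above ILC1 (18 to 36.7).

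The collagen receptor chains Itga1 and Itga2 were higher in both lymphoid libraries than in CD11b+. Itga1 (ENSMUSG00000042284), which encodes CD49a, a mark of tissue-resident lymphocytes and ILC1, stood at 525 CPM in the iCD8a library, 303 in ILC1 and 52.7 in CD11b+. It was 9.96-fold higher in iCD8a than in CD11b+ (9.43 to 10.5) and 5.75-fold higher in ILC1 (5.43 to 6.08). Itga2 (ENSMUSG00000015533), which encodes CD49b, a mark of circulating natural killer cells, stood at 28.7, 51.3 and 3.33 CPM. Both lymphoid libraries exceeded CD11b+, by 8.62-fold (6.94 to 10.8) for iCD8a and 15.4-fold (12.5 to 19.2) for ILC1. Natural killer cell markers summed to 3821, 5846 and 349 CPM, and of 8 such genes, ILC1 was above iCD8a for 4 and above CD11b+ for 8, and iCD8a was above CD11b+ for 4. Il2rb alone gave 3288 CPM of the sum in iCD8a, 2825 in ILC1 and 264 in CD11b+. Between iCD8a and ILC1, neither was called apart, at 1.73-fold for Itga1 (1.68 to 1.78, higher in iCD8a) and 1.79-fold for Itga2 (1.62 to 1.97, higher in ILC1).

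Laminin receptor chains were modest. Itga6 stood at 12.9 CPM in the iCD8a library, 34.4 in ILC1 and 11.3 in CD11b+, and Itga3 at 9.99, 13.2 and 15.3, with no call for either. Itga7 and Itga8, known from muscle and mesenchyme, and the further collagen receptor chains Itga10 and Itga11 stayed below 3 CPM in each library. Itga10 stood at 1.9, 1.45 and 1.56 CPM. Itga8 had 73 counts in CD11b+ and 0 in both others, and Itga11 had 1, 0 and 2 counts.

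Per kilobase, Itga1 made up 48.1% of the α chains that can pair with β1 in iCD8a, 17.9% in ILC1 and 2.78% in CD11b+. Itga4 made up 7.4%, 37.2% and 43.2%, and Itga5 1.35%, 8.16% and 36.2%. Itgav, which also pairs with other β chains, made up 30.1%, 21.5% and 7.83%. So Itga1 led in iCD8a, and Itga4 led in ILC1 and CD11b+.

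**Figure D3:**
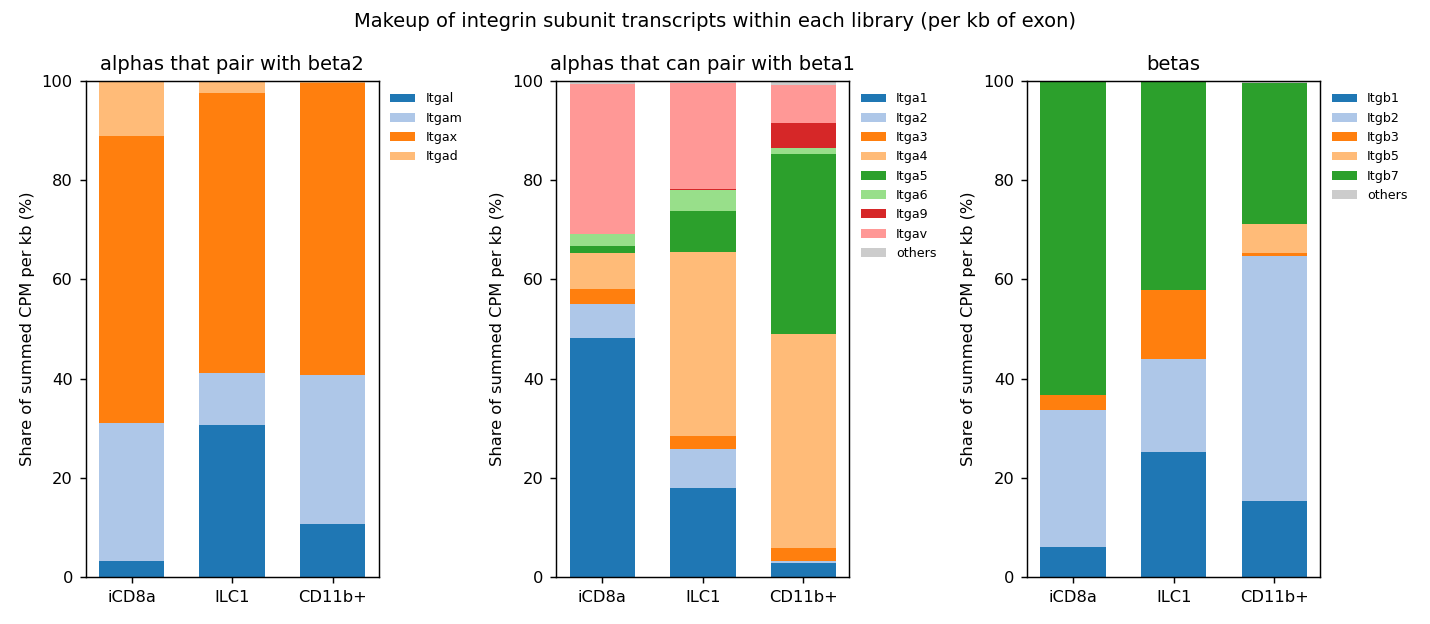
Share of each subunit in the summed CPM per kilobase of exon, within each library, for α chains that pair with β2 (left), α chains that can pair with β1 (middle) and β chains (right). Subunits under 2% in each library are summed as others, and Itgb7 is shown for comparison though it is not among the 34 genes. Itgax leads the left panel in all 3 libraries, and the leading chain of the middle panel is Itga1 in iCD8a and Itga4 in ILC1 and CD11b+.

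The αv integrins bind matrix proteins through an arginine-glycine-aspartate motif, and some of them activate latent TGF-beta. Itgav (ENSMUSG00000027087), their α chain, stood at 189.7 CPM in the iCD8a library, 210.3 in ILC1 and 85.7 in CD11b+, with no call. Its β partners were split between the libraries. Itgb3 (ENSMUSG00000020689), best known from platelets, stood at 82.0 CPM in the iCD8a library, 377 in ILC1 and 17.1 in CD11b+. ILC1 was the high library, 4.6-fold above iCD8a (4.38 to 4.84) and 22-fold above CD11b+ (20.1 to 24.2), and iCD8a exceeded CD11b+ 4.79-fold (4.33 to 5.3). Per length, the ratio of Itgb3 to Itgav was 0.787 in iCD8a (0.746 to 0.83), 3.27 in ILC1 (3.15 to 3.39) and 0.364 in CD11b+ (0.329 to 0.401). With the longest transcript as gene length it was 0.527, 2.19 and 0.244, so the intervals leave out the choice of length.

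Itgb5 (ENSMUSG00000022817), whose αvβ5 product takes part in the uptake of dying cells by phagocytes, stood at 0.592, 2.68 and 110.2 CPM. It was mainly a transcript of the myeloid library, 186-fold above iCD8a (111 to 341) and 41.1-fold above ILC1 (31.8 to 54.1). Itgb8, part of a main activator of latent TGF-beta, had 81 counts in iCD8a, 1 in ILC1 and 11 in CD11b+. Its level of 3.43 CPM in iCD8a was under the minimum for a call, and its ratio to ILC1 was 75.4 with a wide interval (13.2 to 3016). Itgb6, an epithelial chain, had 0, 2 and 13 counts.

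A further pair of subunits, Itga2b and Itgb4, were low and highest in CD11b+. Itga2b, the platelet αIIb chain, stood at 1.9 CPM in the iCD8a library, 1.77 in ILC1 and 11 in CD11b+, which was 5.79-fold (4.22 to 8.1) and 6.22-fold (4.45 to 8.92) above the others. Of 11 other platelet and megakaryocyte markers, 1 was higher in CD11b+ than in iCD8a and than in ILC1, Clec1b, the list summed to 2.96, 5.32 and 24.8 CPM, and Gp6 had 0 counts in every library. Itgb4, the hemidesmosome chain of epithelial cells, stood at 1.44, 1.86 and 10.4 CPM, with CD11b+ 7.22-fold above iCD8a (5.05 to 10.6) and 5.57-fold above ILC1 (4.01 to 7.93). Of 14 intestinal epithelial markers, 11 were higher in CD11b+ than in iCD8a and 12 than in ILC1, with sums of 844, 474 and 1565 CPM and none at 0. Cdh1, Cdh17 and Epcam gave most of the sum in iCD8a, at 359, 193 and 154 CPM there. None of these 3 was called between iCD8a and CD11b+, where they stood at 208, 72.3 and 180 CPM, so Cdh1 and Cdh17 were lower in CD11b+. Cdh17 and Epcam were higher in iCD8a than in ILC1, at 19.1 and 31.3 CPM in ILC1. The part of epithelial RNA in the Itgb4 result was not tested.

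Among β chains as a whole, Itgb7, which is not among the 34 genes, made up 63.1% of the summed CPM per kilobase in iCD8a, 42.0% in ILC1 and 28.5% in CD11b+. Itgb2 made up 27.6%, 18.8% and 49.4%, Itgb1 6.08%, 25.2% and 15.3%, and Itgb3 3.02%, 13.8% and 0.554%. Itgae, the αE partner of Itgb7, stood at 2989.7, 315 and 959.9 CPM. Per length, Itgae exceeded Itgb7 2.25-fold in iCD8a (2.21 to 2.28) and 1.41-fold in CD11b+ (1.37 to 1.44) but reached 0.354 of it in ILC1 (0.343 to 0.364).

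Ligands of integrins were also counted in these leukocytes. Icam1 (ENSMUSG00000037405), the inducible ligand of LFA-1 and of the CD11b integrin, stood at 80.1 CPM in the iCD8a library, 1121 in ILC1 and 318 in CD11b+. ILC1 was the high library and iCD8a the low one, 14.0-fold apart (13.3 to 14.7). Against CD11b+, iCD8a was 3.97-fold lower (3.78 to 4.18), just under the fold minimum, and it passed the minimum with median-of-ratios factors. LFA-1's α chain and its ligand were thus both lowest in iCD8a and highest in ILC1.

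Icam2 (ENSMUSG00000001029), a constitutive ligand of LFA-1, stood at 4.7, 24.4 and 4.57 CPM, with ILC1 5.19-fold above iCD8a (4.23 to 6.43) and 5.34-fold above CD11b+ (4.4 to 6.52). Selp (ENSMUSG00000026580), which encodes P-selectin, a lectin of platelets and activated endothelium, had 0 counts in iCD8a, 140 in ILC1 and 70 in CD11b+. At 6.36 CPM in ILC1 it was at least 40.2-fold higher than in iCD8a by the near bound of the interval. Taking 3 counts as the limit for iCD8a, without counting error in ILC1, gave 50.1-fold. Its 2.56-fold lead over CD11b+ (1.91 to 3.47) in ILC1 was not called. Icam2 and Selp are also transcribed by resident macrophages of the peritoneal cavity. Of 8 markers of those macrophages, 3 were higher in ILC1 than in iCD8a (Prg4, Alox15 and Cd5l), and the list summed to 1.35 CPM in the iCD8a library, 118 in ILC1 and 100.3 in CD11b+, with Vsig4, Timd4 and Cxcl13 at 0 in iCD8a and Gata6 at 0.682 CPM in ILC1. Prg4 and Cd5l were also higher in ILC1 than in CD11b+, whereas Timd4 was lower, at 4.95 against 23.2 CPM. Of 11 endothelial markers, 0 were higher in ILC1 than in iCD8a, their sum in ILC1 was 0.954 CPM, and Tek, Esam and Emcn had 0 counts there. Of the platelet markers, Pf4 had 0 counts in iCD8a and stood at 3.04 CPM in ILC1 and 3.12 in CD11b+, and none of the 11 reached 5 CPM in iCD8a or ILC1. The part of these cell types in the Icam2 and Selp results was not tested.

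Icam4, an erythroid ligand, and Vcam1, the endothelial and stromal ligand of VLA-4, stayed below 2 CPM, and Vcam1 had 0, 3 and 56 counts. Selplg (ENSMUSG00000048163), which encodes PSGL-1, was abundant in every library at 931, 1132 and 392 CPM and was not called apart. Sele, which encodes E-selectin of activated endothelium, stood at 0.0846, 4.41 and 0.496 CPM, under the minimum for a call.

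Among the adaptors that activate integrins, Tln1 and Fermt3 were abundant and not called apart in any comparison. Tln1 (ENSMUSG00000028465), talin 1, stood at 1192 CPM in the iCD8a library, 1037 in ILC1 and 1359 in CD11b+, and Fermt3 (ENSMUSG00000024965), kindlin-3, the kindlin of blood cells, at 168, 191 and 286. The largest fold of these 2 genes was 1.71 (1.64 to 1.77), for Fermt3 between CD11b+ and iCD8a, and the direction of the 1.14-fold difference of Tln1 between CD11b+ and iCD8a turned with levels scaled by total counts alone. Their relatives of other tissues were nearly missing. Tln2 stood at 0.592, 1.5 and 1.31 CPM and Fermt2 at 0.296, 0.182 and 0.248, both under the minimum for a call. Per length, Tln1 exceeded Tln2 3768-fold in iCD8a (2246 to 6894), 1296-fold in ILC1 (922 to 1883) and 1941-fold in CD11b+ (1408 to 2757).

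Other genes of adhesion were described from 5 lists. Of 16 genes of integrin activation, 0 were apart between iCD8a and ILC1, where 3.52% of all genes at 5 CPM were higher and 4.89% lower, so a count of 0 in a list of this size is near the background. The list's median log2 ratios were −0.33, −0.30 and −0.35 in the 3 comparisons, in the order used above. Against CD11b+, 2 were higher (12.5%, against 6.13%) and 2 lower (12.5%, against 13.4%) in iCD8a. In ILC1, 2 were higher (12.5%, against 6.01%) and 1 lower (6.25%, against 13%) than in CD11b+. The list shares are over all 16, of which 15 reached 5 CPM in each comparison. Against CD11b+, Skap1, an adaptor that carries Rap1 signals to integrins in T cells, was 10.4-fold (9.41 to 11.4) higher in iCD8a and 14.7-fold (13.3 to 16.2) higher in ILC1, and Rasgrp1, an exchange factor below lymphocyte receptors, 4.54-fold (4.3 to 4.8) and 7.86-fold (7.46 to 8.28). Skap2, the related adaptor of myeloid cells, was lower in both, 4.81-fold (4.51 to 5.14) and 9.97-fold (9.09 to 11), and Rasa3 was lower in iCD8a 4.15-fold (3.87 to 4.45). The remaining genes were not called, among them Apbb1ip, which links Rap1 to talin, at 125, 151 and 141 CPM.

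Of 24 genes of adhesion signalling, 9 were higher in CD11b+ than in iCD8a and 9 than in ILC1 (37.5% each), and 0 were lower in either comparison. Of all genes at 5 CPM, 13.4% and 13% were higher in CD11b+ and 6.13% and 6.01% lower. A count of 0 lower in a list of this size is near that background. The list shares are over all 24, of which 18, 22 and 22 reached 5 CPM in the 3 comparisons. The list's median log2 ratios were 0.06, −1.31 and −1.23. Actn1, which crosslinks actin, was higher in CD11b+, 19.7-fold against iCD8a (17.9 to 21.7) and 52.2-fold against ILC1 (44.7 to 61.4). Parvb stood at 0.0846 CPM in iCD8a and 26.8 in CD11b+, and Ptk2, focal adhesion kinase, at 0.682 in ILC1 and 23.9 in CD11b+. Between iCD8a and ILC1, Tns1 was 4.33-fold higher (3.16 to 6.04) and Src 5.57-fold lower (4.58 to 6.82) in iCD8a. These were the only calls there, 1 higher and 1 lower (4.17% each), near the 3.52% and 4.89% of all genes at 5 CPM.

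Of 30 listed matrix ligands, 2 were higher and 2 lower in iCD8a than in ILC1 (6.67% each). Of all genes at 5 CPM, 3.52% were higher and 4.89% lower. Against CD11b+, 4 were higher and 4 lower in iCD8a (13.3% each, against 6.13% and 13.4%). In ILC1, 0 were higher and 3 lower (10%) than in CD11b+, against 6.01% and 13%. The list shares are over all 30, of which 8, 11 and 9 reached 5 CPM, so the bases differ. The list's median log2 ratios were −1.26, −1.74 and −1.06, over the 14 genes at 1 CPM or more. Fn1, fibronectin, the ligand of the Itga5 product, stood at 1.4 CPM in the iCD8a library, 271 in ILC1 and 896 in CD11b+, in the same order as Itga5. Fn1 is also transcribed by macrophages, of whose 10 markers 5 were higher in ILC1 than in iCD8a. The list summed to 30.6 CPM in the iCD8a library, 349 in ILC1 and 7414 in CD11b+, of which Lyz2 alone gave 6.52, 252 and 4844. Cd68 went the other way between iCD8a and ILC1, at 19.5 against 7.68 CPM, and was not called. The part of macrophages in the Fn1 and Itga5 results was not tested. Thbs1, thrombospondin 1, stood at 4.91, 86.8 and 4145 CPM. Spp1, osteopontin, a ligand of αv and α9 integrins, went against this order at 226, 13.5 and 13.3 CPM. Col1a2 was 11.6-fold (6.96 to 20.7) and 11.3-fold (7.2 to 18.7) higher in iCD8a than in ILC1 and CD11b+, the only called gene among 11 fibroblast and muscle markers, whose sums were 11.7, 4.68 and 8.86 CPM. Lamc1, a laminin chain, was 4.92-fold higher in iCD8a than in CD11b+ (4.29 to 5.67). The basement membrane genes Nid1 and Col4a1 were higher in CD11b+, at 6.45 and 11.6 CPM against 0 and 0.55 in iCD8a and 0.0909 and 2.14 in ILC1.

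Of 10 other surface ligands, 1 was lower in iCD8a than in ILC1 (10%, against 4.89% of all genes at 5 CPM). Against CD11b+, 3 were lower in iCD8a (30%, against 13.4%). In ILC1, 1 was higher (10%, against 6.01%) and 2 lower (20%, against 13%) than in CD11b+. The list shares are over all 10, of which 4, 6 and 6 reached 5 CPM. The list's medians were −0.86, −1.62 and 0.61. Thy1, a surface glycoprotein that binds integrins, was at 4.87, 412 and 30.2 CPM. It was 84.7-fold higher in ILC1 than in iCD8a (70.5 to 103) and 13.7-fold higher than in CD11b+ (12.7 to 14.7). F11r, a tight junction protein, was 96.5-fold above iCD8a (63.6 to 154) and 46.0-fold above ILC1 (34 to 63.7) in CD11b+, beside the epithelial markers given above, and Esam, an endothelial adhesion molecule, stood at 0.0423, 0 and 6.56 CPM. The 11 endothelial markers, Esam among them, summed to 15.5, 0.954 and 38.9 CPM, with Emcn at 0 in each library. Flt1 and Robo4 were, like Esam, higher in CD11b+ than in either other library. Cdh5 went the other way, higher in iCD8a than in either other library, at 11.2, 0.0909 and 1.56 CPM. The part of epithelial or endothelial RNA in the F11r and Esam results was not tested. Cdh1, E-cadherin, was counted in each library, at 359, 289 and 208 CPM, and was not called.

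Of 16 carriers and enzymes of selectin ligands, 1 was higher (6.25%) and 2 lower (12.5%) in iCD8a than in ILC1. Of all genes at 5 CPM, 3.52% were higher and 4.89% lower. Against CD11b+, 1 was higher (6.25%, against 6.13%) and 6 lower (37.5%, against 13.4%) in iCD8a. In ILC1, 2 were higher (12.5%, against 6.01%) and 3 lower (18.8%, against 13%) than in CD11b+. The list shares are over all 16, of which 10, 11 and 12 reached 5 CPM. The list's medians were −0.85, −2.32 and −1.46. Fut4, a fucosyltransferase, stood at 14.4, 0.636 and 61.2 CPM, and St3gal6, a sialyltransferase of selectin ligands, at 48.3, 113 and 11.6, so ILC1 was lowest for the first and highest for the second. Cd44, which carries selectin ligands and binds hyaluronan, stood at 74.0, 342 and 781 CPM, 4.62-fold (4.38 to 4.87) and 10.5-fold (10 to 11.1) lower in iCD8a than in ILC1 and CD11b+. Cd24a stood at 5.71, 5.77 and 298 CPM, Cd34 at 0.0423, 0.136 and 7.94, and Chst2 at 1.27, 7.77 and 0.922.

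**Figure D4:**
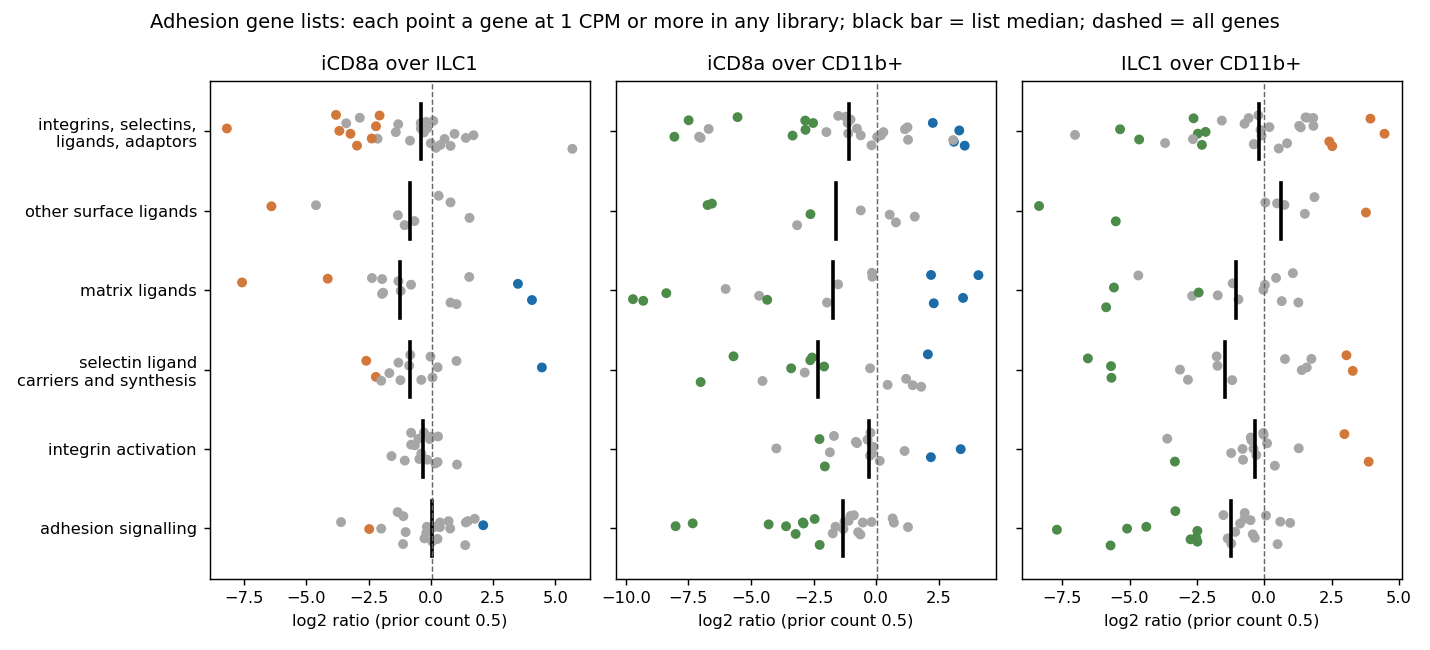
Log2 ratio between 2 libraries (prior count of 0.5) for each gene that reached 1 CPM anywhere, in the 34 genes and 5 further adhesion lists. Coloured points were called apart, in the colour of the library with the higher level, black bars are list medians and dashed lines the median of all genes. In adhesion signalling, coloured points in the CD11b+ comparisons are all green.

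Where exons overlap, reads of a gene and its partner on the opposite strand cannot be told apart without a stated strand setting, and those of partners on the same strand cannot be told apart by strand at all. In the GENCODE annotation, exons of Itga4 share 1124 of 13978 bases with Cerkl on the opposite strand. Exons of Selp share 438 of 4413 with Gm16548 and 186 with Gm16587, both on the opposite strand. On the same strand, exons of Itgam share 3450 of 5024 with Gm49368 and exons of Itga10 share 1739 of 5186 with Gm42957. All 1110 exon bases of Icam4 and 511 of 4360 of Icam1 lie across from Gm47079. Cerkl, Gm16548 and Gm16587 were among the counted IDs, whereas Gm49368, Gm42957 and Gm47079 were not. Overlaps of other members are not listed here.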

How the data were processed

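RNA-seq libraries of iCD8a, ILC1 and CD11b+ cells, 1 each, were compared, with groups taken from the labelled cell type. The members and gene lists were chosen with earlier results of these data known. Per the series' design text, the authors aligned reads with TopHat and counted them with HTSeq. Per the submitters' processing notes, CASAVA 1.9 and TopHat2 were used. Genome build, annotation and strand setting were not given in the sources used here. The values in the authors' deposited files are unnormalized counts for each Ensembl gene ID. The 5 tallies that name no gene stayed out of library sizes and made up 37.3%, 46.4% and 40.0% of everything tallied in iCD8a, ILC1 and CD11b+.

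Symbols and exon lengths came from GENCODE M21, which matched 35449 of 37224 IDs, and promoters from RefSeq (GRCm38.p6). TMM factors from edgeR 4.0.16 (R 4.3.3) were 1.09, 0.992 and 0.925. With 1 library per group, edgeR and DESeq2 1.42.0 gave scaling factors only. Folds have Clopper-Pearson intervals at 95% (scipy 1.17.1, Python 3.11.15). Without molecular identifiers, reads are not independent molecules, so intervals and the 3-count limit cover counting error only. List medians used a prior count of 0.5 and a minimum of 1 CPM. The named genes are the 34, Itgae, Itgb7, Sele, the sort markers, Rag2 and, in each of 5 pathway lists, up to 3 called genes per comparison and direction with the largest near bound. A few genes picked this way are not reported here. Apbb1ip and Cdh1 were named after their values were seen. Alternatives were other scalings, CPM minimums, folds and prior counts, thinning to 21678113 counts, removal of mitochondrially encoded genes, and the longest transcript as gene length.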

Additional observations from a re-analysis of the deposited data

Results flagged for a closer look

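Reads outside the gene comparisons are listed because they were left unanalysed. Of everything that HTSeq tallied, 26.9% in the iCD8a library were alignments to several places, against 34.5% in ILC1 and 30.5% in CD11b+. Outside any gene lay 9.31%, 11% and 8.56% in the same order. Ambiguous reads, which fell on more than 1 gene, were 1.08%, 0.889% and 0.922%. How many of these reads belong to the 34 genes cannot be read from the files.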

How the results depend on the processing

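No paired analysis was possible because each population has 1 library, and leaving out a library would end its comparisons. A count is taken as unmoved within 1.5 times its value, and a median within 0.1 on the log2 scale. With a fold of at least 8, the genes lower in iCD8a were 4 against ILC1 and 4 against CD11b+, and between ILC1 and CD11b+ 2 were higher and 2 lower. With a fold of at least 2 and a near bound above 1.5, iCD8a exceeded ILC1 for 1 gene, CD11b+ exceeded iCD8a for 12 and ILC1 exceeded CD11b+ for 10. With a minimum of 1 CPM, 1 gene was higher in iCD8a than in ILC1. Scaling by total counts, which shifts every log2 ratio of a comparison alike, moved the medians to −0.27 for iCD8a over ILC1 and −0.84 for iCD8a over CD11b+. The medians of all genes at 5 CPM went from 0.06 to 0.20 and from 0.08 to 0.33, and for ILC1 over CD11b+ from 0.03 to 0.14 (0.12 with upper-quartile factors). A minimum of 5 CPM, which changes the genes in the median, gave −0.62 for iCD8a over ILC1 and 0.16 for ILC1 over CD11b+, whose direction reversed, and no minimum gave −0.38 for the latter. The other 66 values for counts, medians and leading subunits kept within these limits under the alternatives run. The leading chain was the same with the longest transcript as gene length in all 9 cases, but some ratios between genes left their counting intervals. Besides Itgb3 to Itgav, Itgal to Itgam was then 0.138 in iCD8a, 3.41 in ILC1 and 0.419 in CD11b+. Itgae to Itgb7 was 2.59, 0.408 and 1.62 in the same order. Tln1 to Tln2 stayed inside its intervals. Depth limits genes with few counts, such as Itga7, Itga11, Itgb6 and Vcam1.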
